A study of Mus musculus with 2 samples.

Results

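This account follows 10 genes of the T lymphoid lineage through the chromatin loops and contact domains of a blood progenitor line. The genes are Cd2, Cd3d, Cd3e, Cd3g, Cd4, Rag1, Rag2, Eomes, Gata3 and Bcl11b, out of 21521 protein-coding genes of the RefSeq annotation placed on the autosomes and the X chromosome. They were taken from a list of names and not from a measurement in these files, although loops of some of them had been seen before the list was drawn up. A loop was assigned to a gene when one of its anchors overlapped the gene or lay within 25 kb of it, or when the stretch from the outer edge of one anchor to the outer edge of the other covered the whole gene. The 10 genes lie at 7 places in the genome, because Cd3g, Cd3d and Cd3e are neighbours on chromosome 9 and Rag2 and Rag1 are neighbours on chromosome 2.

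Hi-C, which counts ligated pairs of DNA fragments that were close to each other in the nucleus, had been carried out on 2 samples of HPC5, a haematopoietic progenitor line from mouse bone marrow, with the genotype Etv6+/+ and no treatment or mutant for comparison. Cells had been fixed for 10 min in 2% formaldehyde and libraries made with an Arima kit. The samples are called replicate 1 and replicate 2 after the numbers in their titles. The labels do not name separate cultures, so a difference between the replicates may be technical. The labels call the cells BM-derived HPC, and the loop lists hold no expression values against which that name could be checked.

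T cells arise in the thymus from progenitors that come from the bone marrow. The early steps need the transcription factors GATA3 and BCL11B, the recombinase made of RAG1 and RAG2, which cuts and rejoins antigen receptor genes, and then the CD3 chains that carry the receptor's signal. Loops between distant chromatin sites are commonly formed by cohesin between CTCF-bound anchors, and some join a gene start to an enhancer. In T cells both Gata3 and Bcl11b are known to be controlled by enhancers in the wide gene-poor stretches beyond their 3′ ends.

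The list of replicate 1 held 1276 loops and that of replicate 2 held 5729 loops at the medium setting, the wider of 2 lists that the authors deposited for each sample. The high setting, with 202 and 3354 loops, held exactly the loops of the medium lists on 5 and 10 kb anchors and none on 25 kb anchors. Replicate 2 was therefore 4.49 times as rich in loops, so a loop missing from replicate 1 cannot be read as a difference between the samples. The read depth behind the lists is unknown. Each loop carries a whole number tagged n, which the files do not define. It is given here with its percentile among loops of the same replicate and anchor width, since wider anchors have larger n (medians of 31 on 25 kb anchors in replicate 1, and of 29 on 10 kb and 60 on 25 kb anchors in replicate 2).

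Of the 10 T lymphoid genes, 9 had a loop anchor at the gene or within 25 kb in one replicate or the other. Bcl11b was the exception. In replicate 1 there were 5 such genes (Cd2, Cd3d, Cd3e, Cd3g and Eomes), against 16.5% of all protein-coding genes. In replicate 2 there were 7 (Cd2, Cd3g, Cd4, Rag1, Rag2, Eomes and Gata3), against 48.8% of all. With both replicates together the share over all genes was 49.9%. Counted by place and not by gene, 3 of 7 places had such an anchor in replicate 1 and 6 of 7 in replicate 2. These counts are descriptions: neighbouring genes share their loops, the list was drawn up with some of the loops known, and no test of enrichment was made.

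The median distance from the gene to the nearest anchor was 24.6 kb over the 10 genes in replicate 1, against 387 kb over all protein-coding genes. In replicate 2 it was 9.77 kb against 27.1 kb. Rag1 in replicate 1, at 25.5 kb, lay just outside the 25 kb window, and Cd3e in replicate 1, at 23.7 kb, just inside it. In replicate 2 the nearest values on either side of the window were 19.6 kb for Cd3g and 31.8 kb for Cd3d.

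**Figure D1:**
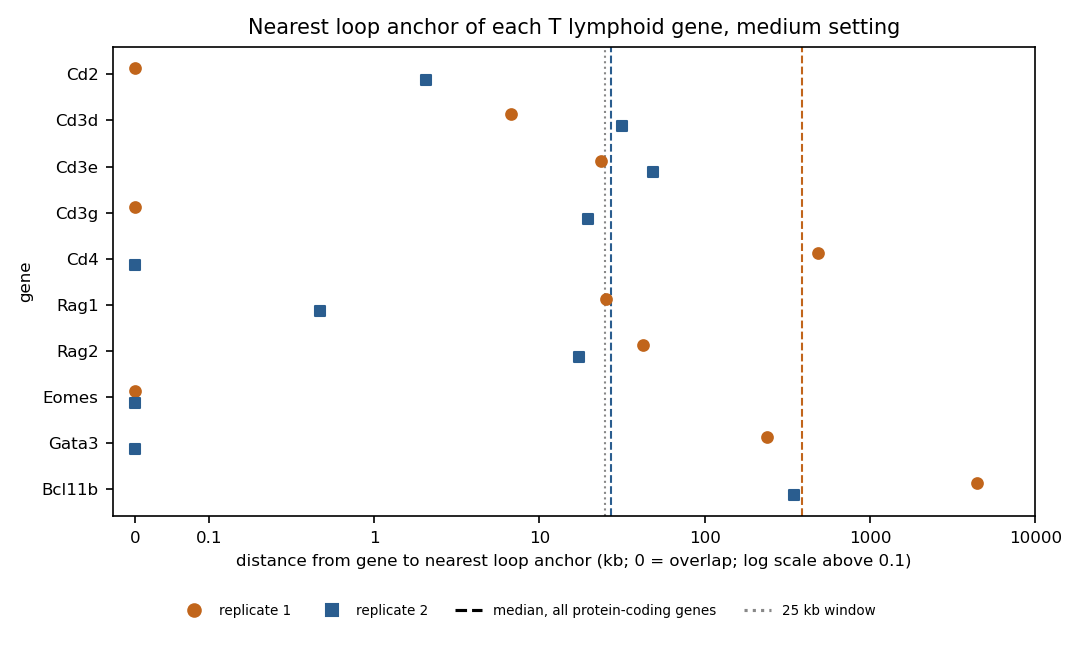
Distance in kb from each of the 10 T lymphoid genes to the nearest loop anchor (log scale above 0.1 kb, 0 for an overlap), with circles for replicate 1, squares for replicate 2, dashed lines for the medians of all protein-coding genes (387 and 27.1 kb) and a dotted line at 25 kb. Eomes sits at 0 in both replicates, and Bcl11b lies farthest out in both, at 4410 and 346 kb.

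Cd2 encodes an adhesion receptor of T and NK cells that binds partners on other cells. It occupies 101275908 to 101287939 on chromosome 3, and a loop reached it in both replicates. In replicate 1 the loop joined 101275001 to 101299999, which held the whole gene, to 100975001 to 100999999, which held an end of Cd101, over 300 kb. Its n of 21 ranked at percentile 10.3 of the 25 kb loops of that replicate. In replicate 2 the matching loop was called on 10 kb anchors, at 100970001 to 100979999 and 101290001 to 101299999, over 320 kb, with an n of 37 (percentile 76.1). At this finer width the right anchor began 2.06 kb beyond the right end of Cd2, and no protein-coding gene began or ended in either anchor. The matched loops thus ended at Cd2 on the 25 kb bins of replicate 1 and just beside it on the 10 kb bins of replicate 2. Bin width and replicate cannot be told apart here.

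Both Cd2 loops enclosed Cd101 and Ptgfrn, which like Cd2 encode immunoglobulin-superfamily membrane proteins, and the predicted gene Gm52612. A further replicate 2 loop of 850 kb, from 100950001 to 100974999 at Ttf2 to 101800001 to 101824999 at Mab21l3, passed over Cd2 and, among others, Igsf3. Its n of 23 was among the lowest for its width (percentile 1.81), and it had no partner in replicate 1.

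Cd3g, Cd3d and Cd3e encode the gamma, delta and epsilon chains of the CD3 complex, the signalling part of the T cell receptor. They stand in a row from 44969572 to 45009663 on chromosome 9. In both replicates the only loop at the cluster came from its left side and started inside Kmt2a, the gene of a histone methyltransferase needed in blood stem cells, at 44825001 to 44849999. In replicate 1 it ended at 44950001 to 44974999, 125 kb away, with an n of 34 (percentile 61.1). That anchor held the left end of Cd3g, which is the 3′ end since the gene is read from the minus strand, and also an end of Ube4a, a ubiquitin ligase gene. In replicate 2 it ended one bin earlier, at 44925001 to 44949999 within Ube4a, 100 kb away, with an n of 105 (percentile 91.9), and held no gene end.

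The right anchors of these Cd3 loops touch but do not overlap, so the loops did not count as found in both replicates at the 20 kb tolerance, and at 25 kb they did. Cd3d lay 6.77 kb and Cd3e 23.7 kb from the replicate 1 anchor, and 31.8 and 48.7 kb from the replicate 2 anchor. The start site of Cd3g, at 44980431, lay 5432 bases outside the replicate 1 anchor. No loop span covered any of the 3 Cd3 genes, and no loop joined one of them to another.

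Cd4 encodes the coreceptor of helper T cells, which binds MHC class II. The gene occupies 124864693 to 124888247 on chromosome 6. Replicate 2 had 1 loop there, which joined 124860001 to 124869999 to 124920001 to 124929999 over 60 kb on 10 kb anchors, with an n of 35 (percentile 70.2). The left anchor held the left end of Cd4 and an end of its neighbour Gpr162. No protein-coding gene began or ended in the right anchor. The loop enclosed Cd4, Ptms and Lag3, an inhibitory receptor gene related to Cd4. Replicate 1 had no anchor nearer than 485 kb, although 45 other protein-coding genes lie within 500 kb of Cd4.

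Rag1 and Rag2 encode the recombinase that assembles antigen receptor genes in T and B cell precursors. Rag2 lies at 101624712 to 101632528 and Rag1 at 101638252 to 101649532 on chromosome 2, facing each other. Replicate 2 had a 180 kb loop between 101470001 to 101479999 and 101650001 to 101659999, and its span covered both genes and Iftap. The right anchor began 469 bases beyond the start site of Rag1. Both anchors were free of protein-coding gene ends. Its n of 19 was low for 10 kb anchors (percentile 9.78), and it had no partner in replicate 1.

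The nearest loop to the Rag genes in replicate 1 lay on the other side and belonged to Traf6, a signalling adaptor gene of the NF-kB pathway. It joined 101675001 to 101699999 to 101875001 to 101899999, with ends of Prr5l and Commd9 at the right anchor, over 200 kb, and was found again in replicate 2 on 5 kb anchors over 180 kb. It began 25.5 kb from Rag1 and 42.5 kb from Rag2. The loop beside the Rag genes that both replicates shared thus led away from them.

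**Figure D2:**
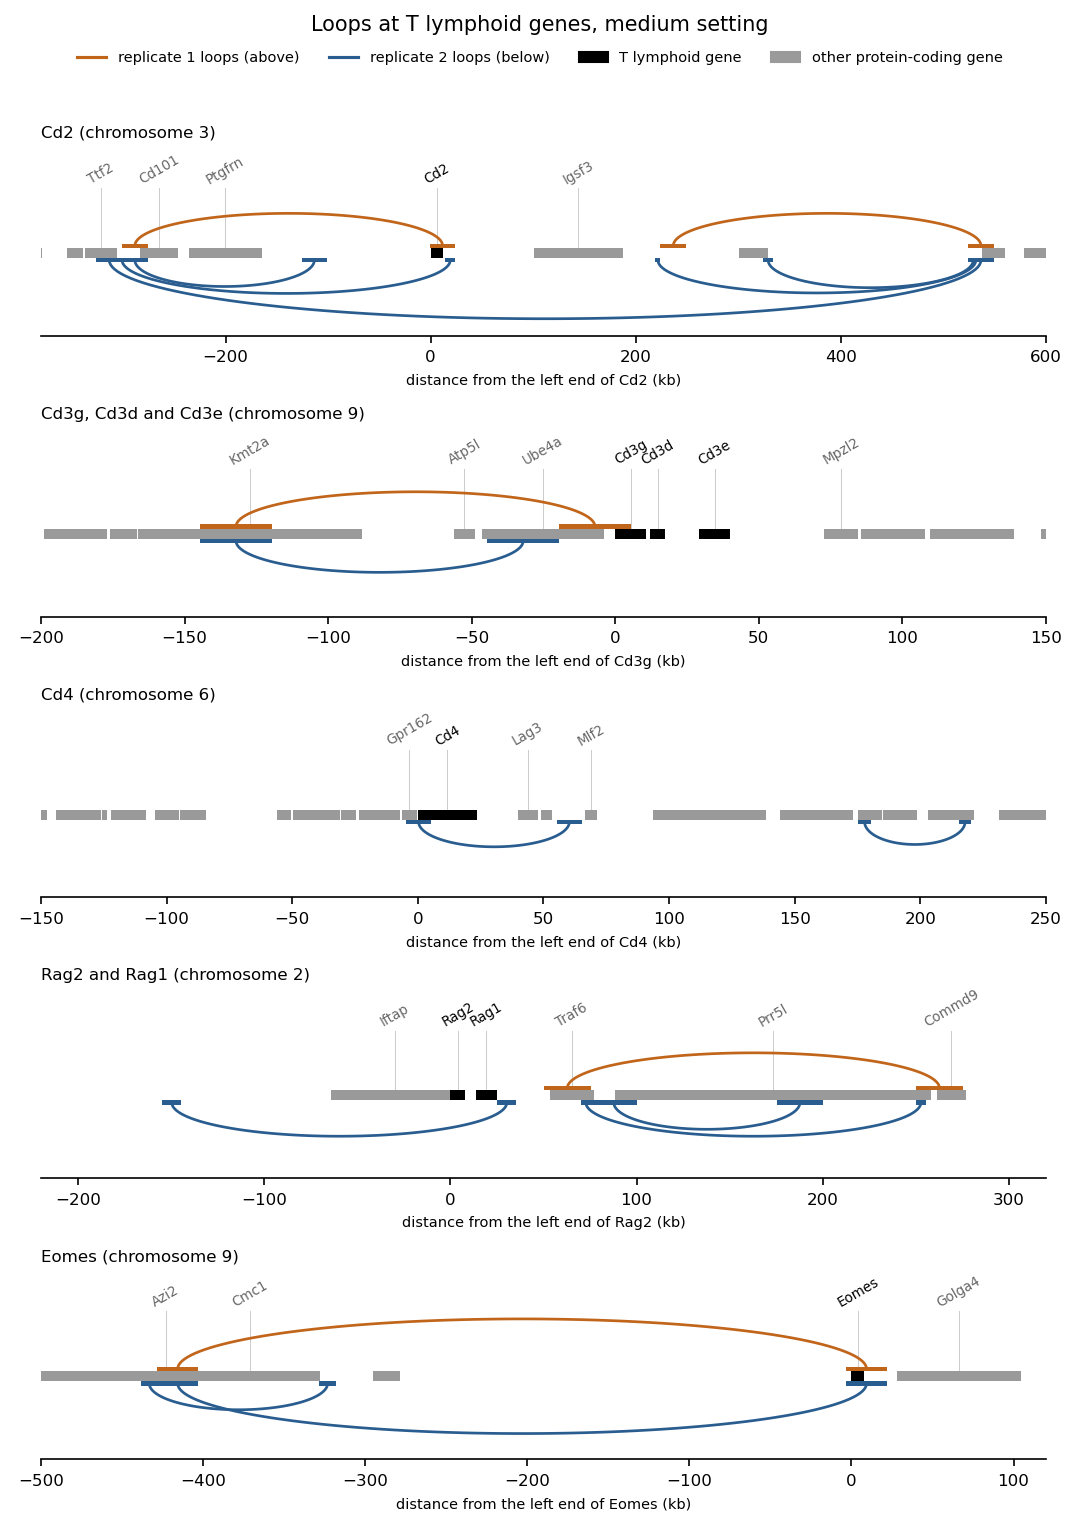
Loops at Cd2, the Cd3 cluster, Cd4, the Rag genes and Eomes, as arcs between anchors (thick bars) against the distance in kb from the left end of the gene named on each axis, with replicate 1 above and replicate 2 below; loops that leave the window are not drawn, and arc height grows with span. Black boxes are the T lymphoid genes and grey boxes other protein-coding genes. The arcs at Cd2 and Eomes appear on both sides, the Cd3 arcs end 1 bin apart, and those at Cd4 and over the Rag genes appear below only.

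Eomes encodes a T-box transcription factor of cytotoxic T cells and NK cells. It was the one gene of the 10 with the same loop, on identical anchors, in both replicates. The gene lies at 118478186 to 118486132 on chromosome 9, wholly inside the anchor 118475001 to 118499999. The other anchor, at 118050001 to 118074999, held an end each of Azi2, which encodes a TBK1-binding adaptor, and Cmc1, which encodes a mitochondrial protein. The span of 425 kb ranked at percentiles 90.8 and 86.4 of the loops of replicates 1 and 2. The value n was 25 in replicate 1 (percentile 24.2) and 76 in replicate 2 (percentile 70.4). That ratio of 3.04 lay within the quartiles, 2.53 and 3.16, of the 163 pairs of 25 kb loops with identical anchors in both replicates.

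Gata3 encodes a zinc finger factor of early T cells and T helper type 2 cells. RefSeq gives it the extent 9857078 to 9887953 on chromosome 2, with the start site used here at 9878600 on the minus strand. Replicate 2 had a loop from 9875001 to 9899999, which held this start site, to 10000001 to 10024999, which lay inside Taf3, the gene of a subunit of general factor TFIID. It spanned 125 kb and had an n of 75 (percentile 69.2). The Gata3 anchor also overlapped the noncoding genes 4930412O13Rik and 9230102O04Rik. Replicate 1 had no loop at Gata3, and its nearest anchor, at Itih2, was 237 kb away.

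For the 8 of 10 genes whose start site and strand are in the RefSeq promoter table, the start site lay in an anchor for Eomes alone in replicate 1 (4.15% of 17274 protein-coding genes) and for Eomes and Gata3 in replicate 2 (12.9%). The start of Rag1 was the only other one within 1000 bases of an anchor. The 250 bases before these 3 start sites are shown because they are the gene starts nearest to loop anchors. They are GRCm38.p6 sequence from RefSeq, the assembly that mm10 names, written 5′ to 3′ along the gene. They lie at chr9:118477939-118478188 on the plus strand (Eomes), chr2:9878601-9878850 on the minus strand (Gata3) and chr2:101649533-101649782 on the minus strand (Rag1). Capitals mark every match, on either strand, to 4 motifs. CCGGAA is the core of sites that many proteins of the ETS family bind. AGATAA is a common binding site for the GATA family of transcription factors. AGGNGGC is a fragment of the motif of CTCF, the main DNA-binding protein at loop anchors. CANNTG is the E-box, bound by basic helix-loop-helix proteins such as E proteins.
Eomes: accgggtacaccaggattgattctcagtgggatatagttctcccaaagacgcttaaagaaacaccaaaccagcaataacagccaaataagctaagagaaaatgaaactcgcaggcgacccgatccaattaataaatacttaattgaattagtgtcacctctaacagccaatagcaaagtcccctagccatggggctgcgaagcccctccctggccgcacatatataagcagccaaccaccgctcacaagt
Gata3: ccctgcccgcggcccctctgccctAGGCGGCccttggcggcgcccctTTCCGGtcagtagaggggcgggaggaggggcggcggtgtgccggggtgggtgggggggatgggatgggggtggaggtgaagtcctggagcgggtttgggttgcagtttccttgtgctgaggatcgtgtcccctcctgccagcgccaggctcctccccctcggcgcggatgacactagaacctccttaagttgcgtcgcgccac
Rag1: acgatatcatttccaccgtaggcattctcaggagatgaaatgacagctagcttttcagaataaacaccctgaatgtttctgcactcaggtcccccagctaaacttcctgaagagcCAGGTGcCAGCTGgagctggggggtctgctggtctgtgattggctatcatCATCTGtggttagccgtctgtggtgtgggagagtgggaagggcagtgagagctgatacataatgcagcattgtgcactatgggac

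Eomes had a match to none of the 4 motifs in this window. Gata3 had 1 match to the CTCF fragment, from position -226 relative to the start, and 1 to the ETS core, from position -203. Rag1 had 3 E-boxes, from positions -135, -128 and -85, none of which overlapped another. Over 21045 such windows of protein-coding genes, 15.1% held the ETS core, 8.84% the GATA site, 28.8% the CTCF fragment and 62.8% an E-box. A match is a run of letters and does not show that a factor binds there.

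The stretch without protein-coding genes to the left of Gata3, which is its 3′ side, runs from Celf2 to Gata3 over 2461 kb (7396342 to 9857077). Of 19388 such stretches in the genome, 52 were longer. It holds 9 noncoding genes. Replicate 2 had 1 loop with an anchor in it and replicate 1 had none. That loop had an anchor at 8750001 to 8774999, in the middle of the desert, with the anchor midpoint 1095 kb from Gata3. Its other end was the same Taf3 anchor that the Gata3 loop reached, at 10000001 to 10024999. The loop spanned 1250 kb and passed over Gata3, with an n of 38 (percentile 17.0). In replicate 2 the far desert bin and the bin with the Gata3 start were thus each joined to one bin inside Taf3. No loop joined them to each other. The 25 kb Gata3 bin also holds the right end of the gene, so the loop cannot be placed at the start itself. Neither loop had a partner in replicate 1. On the right, Gata3 is only 26.6 kb from Taf3.

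Bcl11b encodes a zinc finger factor that fixes the T cell fate. It had no loop by any part of the rule in either replicate. The gene, 93.7 kb long, lies at 107910403 to 108004145 on chromosome 12, and on its 3′ side 798 kb without a protein-coding gene separate it from the predicted gene Gm52008 (107112137 to 107910402). When predicted genes are set aside the desert reaches back to Vrk1 over 1832 kb. Neither stretch held an anchor in either list, and none of the 102 kb between Bcl11b and Setd3 on the other side did.

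The anchor-free stretch around Bcl11b ran from 106075000 to 108350000 in replicate 2, which is 2275 kb with 7 protein-coding genes. Of 9352 stretches between anchors, 190 (2.03%) were longer. In replicate 1 the stretch ran over 9225 kb with 104 protein-coding genes, and 30 of 2427 (1.24%) were longer. These ranks are by stretch, and a long stretch can hold many genes. Ranked by gene, the distance from Bcl11b to its nearest anchor was at percentile 98.1 in replicate 1 and 86.2 in replicate 2 of all protein-coding genes. The nearest replicate 2 loops were one from Papola to a bin inside Vrk1 on the left, of 225 kb, and one from an anchor with ends of Cyp46a1 and Eml1 on the right, of 125 kb. Deserts without an anchor are common in these lists: of 639 stretches of at least 500 kb without protein-coding genes, 85.6% had none in replicate 1 and 55.9% had none in replicate 2.

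**Figure D3:**
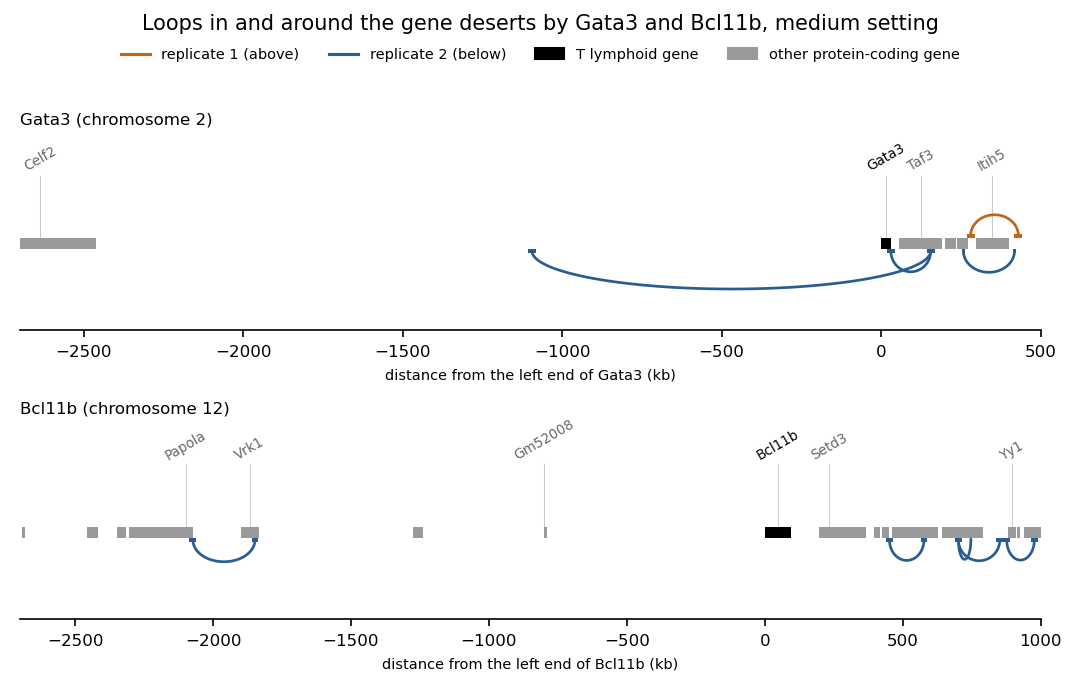
Loops around Gata3 and Bcl11b against the distance in kb from the left end of each gene, drawn with replicate 1 above and replicate 2 below. A single replicate 2 arc leaves the Gata3 desert, from an anchor midpoint 1095 kb from the gene, and no arc starts or ends in the 2275 kb around Bcl11b.

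None of the 10 genes lay in a contact domain. Replicate 1 listed 3 domains and replicate 2 listed 339, with 0.0418% and 3.98% of all protein-coding genes wholly inside one. The nearest domain to a T lymphoid gene began 197 kb from Cd2. For the other genes the distance in replicate 2 was from 1090 kb at Rag1 to 3490 kb at Bcl11b. In replicate 1 only chromosome 2 among those with T lymphoid genes had a domain, 3392 kb from Gata3.

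An end of the gene lay in an anchor for 3 of the 10 genes in replicate 1 (Cd2, Cd3g and Eomes; 6.67% of all protein-coding genes) and for 3 in replicate 2 (Cd4, Eomes and Gata3; 19.8%). Over both replicates there were 5 (22.5% of all). A span covered the whole gene for 2 genes in replicate 1 (Cd2 and Eomes; 9.28% of all) and for 6 in replicate 2 (these and Cd4, Rag1, Rag2 and Gata3; 34.0%), and 6 over both (35.0%). An anchor of a loop found in both replicates lay at or within 25 kb of Cd2 and Eomes alone, 2 of 10 against 13.7% of all genes. The count for shared loops is near the share over all genes.

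Within 500 kb of the gene, the number of replicate 2 loops with an anchor ran from 1 at Bcl11b and 3 at Eomes and Gata3 to 7 at the Cd3 and Rag genes. Cd2 had 5 and Cd4 had 6. The median was 6.5 against 4 over all genes, but the Cd3 genes share a neighbourhood, as do the Rag genes. The value 7 therefore enters that median by gene and not by place. In replicate 1 it ran from 0 at Bcl11b to 2 at Cd2 and the Cd3 genes, with a median of 1 in both sets. Gene density differed widely between the places, from 6 other protein-coding genes within 500 kb of Rag1, Rag2, Gata3 and Bcl11b to 45 at Cd4.

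The rule gave 3 loops in replicate 1, counting the Cd3 loop once, and 8 in replicate 2. Of the 3, the loops of Cd2 and Eomes were found again in replicate 2 (66.7%, 95% Wilson interval 20.8 to 93.9%), against 80.6% of all replicate 1 loops. Of the 8, 2 were found in replicate 1 (95% Wilson interval of the share 7.15 to 59.1%), against 18.2% of all replicate 2 loops. The shares over all loops lay inside both intervals, which cover counting error only. With 3 and 8 loops the intervals are too wide for this to show that the shares are alike. All 3 loops of replicate 1 were on 25 kb anchors. In replicate 2, 5 were on 25 kb and 3 on 10 kb anchors, and none on 5 kb anchors. The shortest replicate 2 span was the 60 kb of the Cd4 loop and the longest the 1250 kb of the loop over Gata3. Apart from the percentiles given for the Eomes loop, spans are not set against those of all loops. The rule takes in loops that pass over a gene and so favours long ones.

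Among 46 other T lineage genes, 8 had an end in an anchor in one replicate or both (17.4%, against 22.5% of all protein-coding genes). An anchor lay at or within 25 kb of 12 in replicate 1 (26.1%, against 16.5% of all) and of 24 in replicate 2 (52.2%, against 48.8%). Spans covered 14 of them in replicate 1 (30.4%, against 9.28% of all) and 25 in replicate 2 (54.3%, against 34.0%). Cd247, which encodes the zeta chain that signals together with CD3, had the same loop of 200 kb in both replicates, from 165775001 to 165799999 with Creg1 to 165975001 to 165999999 on chromosome 1. Its n was 41 (percentile 82.5) in replicate 1 and 93 (percentile 85.6) in replicate 2. Hes1, a target gene of Notch, had the same loop of 325 kb in both, with n of 20 and 48. Icos, a costimulatory receptor gene, had its end at a shared loop of 100 kb in replicate 1 alone.

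Other T lineage genes had an end at loops that were not matched between replicates. Cd28, the costimulatory receptor gene, was joined to Raph1 over 175 kb in replicate 1 and over 200 kb in replicate 2, where n reached 120 (percentile 96.3). The Cd28 anchors of these loops are neighbouring bins, as at the Cd3 cluster. Tcf7, which encodes the early T cell factor TCF-1, shared an anchor with Skp1 at a 100 kb loop in replicate 2, with n of 99 (percentile 89.3). Cd8a, the gene of the coreceptor of cytotoxic T cells, shared an anchor with Rmnd5a at a 225 kb loop, Tcf12 had loops of 350 and 575 kb, and Id2 one of 975 kb with a low n of 24 (percentile 2.44), all in replicate 2.

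Lists of B lineage and of stem cell genes gave context for the 10 genes. Of 30 B lineage genes, which mark the other lymphoid fate, 8 (26.7%) had an anchor at or within 25 kb in replicate 1. In replicate 2, 14 (46.7%) did. Of 30 stem and progenitor regulators, genes of the cell state that the line is labelled with, 13 (43.3%) and 22 (73.3%) did in replicates 1 and 2. The shares over all protein-coding genes were 16.5% and 48.8%, so the B lineage share in replicate 2 is near that of all genes. The plot of shares sets these beside the T lymphoid genes. Ends lay in an anchor for 3 of the 10 genes in each replicate. In replicate 1 the shares were 8.70% for the other T lineage genes, 6.67% for B lineage genes, 26.7% for the stem and progenitor regulators and 6.67% for all protein-coding genes. In replicate 2 they were 15.2%, 13.3%, 33.3% and 19.8% in the same order. With 10 genes, 1 gene moves the share by 10 percentage points, and differences between the lists were not tested.

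**Figure D4:**
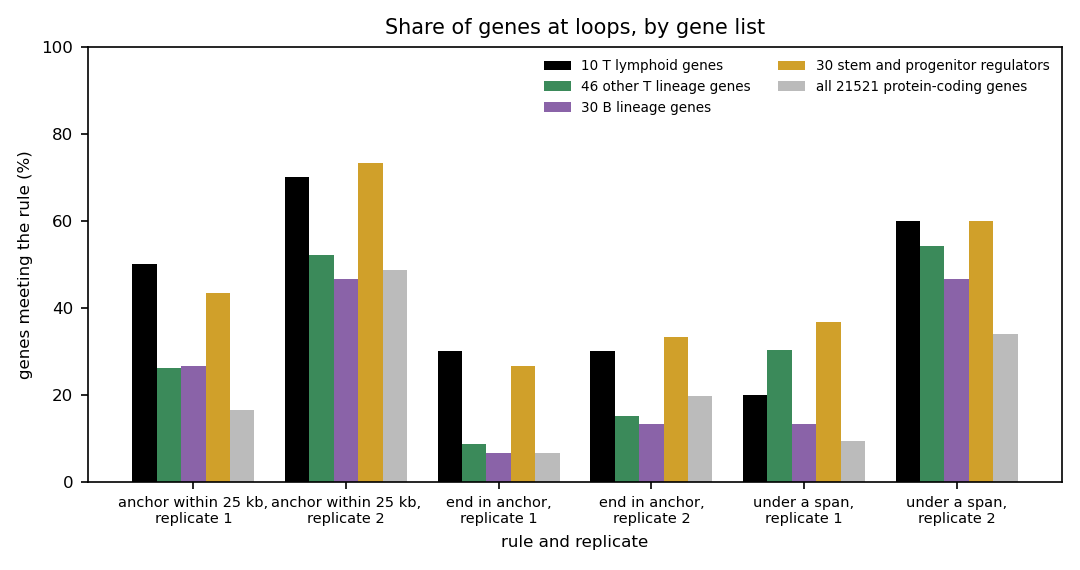
Percent of genes that met each rule, by replicate, for the 10 T lymphoid genes, 46 other T lineage genes, 30 B lineage genes, 30 stem and progenitor regulators and all 21521 protein-coding genes. The black bars stand above the grey ones under all 6 rules shown, as do those of the stem and progenitor regulators. The rules overlap, neighbouring genes share loops, and the lists were chosen with earlier results known, so the 6 comparisons are not independent. The share of other T lineage genes is below that of all genes for ends in replicate 2 (15.2% against 19.8%). For spans in replicate 1 their share, 30.4%, is above that of the T lymphoid genes. The bars carry no error since each is a count over a fixed list.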

How the data were processed

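HPC5 Hi-C libraries had been processed with HiC-Pro 2.11.1 on build mm10, per the submitters' processing notes. The callers of loops and of domains, with their thresholds, were not given in the sources used here. The authors deposited, for each sample, loops at a high and a medium setting and domains. In the deposited lists n and the value qBL (at most 0.0948) are undefined, and the domain score was not used. Depth is unknown.

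Loop coordinates are printed unchanged, while 1 base was added to domain starts. Genes came from RefSeq GRCm38.p6, without 345 on unplaced or alternate scaffolds (110 protein-coding). All 8 start sites came from its promoter table. The strands of Cd2 and Cd4 are not in it. Loops matched when both anchor midpoints lay within 20 kb. The members and lists were chosen with earlier results of these data known. Named genes are the 10 members, genes ending at partner anchors or flanking deserts, and other T lineage genes ending in an anchor. Python 3.11.15 with pandas 2.3.3, numpy 2.4.6 and scipy 1.17.1 was used. Simulated loops served to check the assignment by gene end and by the 25 kb window, and the matching of loops. Spans, domains, deserts, anchor-free stretches and motifs were not checked in this way. No comparison between groups was possible and no test was run. Alternatives were the high lists, qBL of at most 0.01, single replicates, other windows, matching rules and desert bounds.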

Additional observations from a re-analysis of the deposited data

How the results depend on the processing

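Of 36 alternative settings of the main counts and shares, 24 left them within 1.5 times their value or within the interval. Of the 10 genes, the number with an anchor at or within 25 kb was 9, but 4 on the high lists, 5 with a window of 0 kb and 5 to 7 when a replicate was left out. The number with an end in an anchor was 5, but 1 on the high lists and 3 without either replicate. No share over all protein-coding genes is at hand for the high lists or the 0 kb window. The counts under those settings therefore cannot be read as high or low. The number under a span was 6, and 2 to 6 when a replicate was left out. On the high lists 0 loops had an anchor in the deserts, and 0 to 1 did when a replicate was left out. The share of replicate 1 loops found in replicate 2 rose from 66.7 to 100% with midpoints within 25 or 50 kb, since the Cd3 loops then matched. With midpoints within 10 kb it fell to 33.3%, which was counted as unchanged because the interval is wide (20.8 to 93.9%). On the high lists replicate 1 had no loop at these genes, and 0% of the 3 replicate 2 loops had a partner. The fall on the high lists follows from their construction, as they are the medium lists without the 25 kb anchors. With deserts bounded by any annotated gene no stretch of 500 kb was left, so that alternative has no value. Setting predicted genes aside was chosen after seeing the data and gave the same count of 1. No paired analysis was possible because there is 1 group. Depth is unknown, so a loop missing from replicate 1 may lie below what that library could show.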
